A study of Danio rerio with 8 samples.

Results

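The 4 melanoma libraries of the series, of 8 RNA-seq libraries in all, were examined on their own, and every one of the 28272 genes in the count table was considered. Each library was made from EGFP-positive cells without pigment, sorted from melanomas of adult zebrafish. The fish carried BRAF with the V600E change and EGFP, both driven by the mitfa promoter, together with the b4 allele of alb, the locus of slc45a2, a transporter gene of the melanosome. The mitfa promoter is active in the pigment cell lineage, which limits where both transgenes are expressed. Neither transgene is among the rows analysed here. The labels give the libraries as replicates 1 to 4 and do not say whether each came from its own fish or tumour, so the spread reported here is that between libraries, which may in part be technical. With 1 group there was no contrast and no test between groups was run.

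Melanoma arises from melanocytes, neural crest derivatives whose identity is kept by the transcription factors Sox10 and Mitf. Those factors drive the enzymes and structural proteins of the melanosome, the organelle in which melanin is made. A sorted tumour fraction can also hold immune and blood cells and keratinocytes, and dissociation of tissue is known to induce immediate early and heat shock genes. In bulk libraries such as these, fewer cells of a type and less RNA per cell cannot be told apart.

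Levels are CPM, counts scaled to a library of fixed size, after TMM scaling, a scaling of library sizes computed over these 4 libraries. Libraries held 91379900 to 100270657 counts, and 24832 to 26706 genes had at least 10 counts. The 10 most counted genes of each library took 5.83% to 6.51% of its counts. CPM values are not divided by transcript length, so the ranking below is by share of counts and says nothing of molecules per gene. Every pair differed by more than counting error over genes, with a chi-square of at least 297 for each degree of freedom. Replicates 3 and 4 were the closest pair, with 2.1% of genes at least 4-fold apart, and replicates 1 and 3 the farthest, with 9.78%.

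The most counted transcripts included genes of translation, the cytoskeleton, keratins and pigment. First in every library was eef1a1l1, which encodes the elongation factor that brings aminoacyl-tRNA to the ribosome. It stood at 8816, 14855, 14856 and 14807 CPM in replicates 1 to 4 (mean 13334 ± 3012, SD, n = 4). Replicates 2, 3 and 4 lay together and replicate 1 below them. Of the 20 most counted genes with a symbol of their own, 8 encode ribosomal proteins, among them rplp0 at 4294 ± 909 CPM and rplp1 at 4267 ± 613 CPM (SD, n = 4 each). The iron store subunit fthl27 averaged 4839 ± 969 CPM and the tubulin gene tubb4b 4141 ± 1003 CPM (SD, n = 4 each).

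Actin transcripts were less even than the ribosomal ones. The cytoplasmic beta-actin gene actb2, often used as a loading reference, had 6158, 10313, 2575 and 3611 CPM in replicates 1 to 4. The related actb1 had 3288, 1559, 4391 and 2968 CPM. Replicate 2 was thus the highest library for actb2 and the lowest for actb1. The paired simple epithelial keratins krt8 and krt18b also ranked among the 20. For krt8 the values were 4225, 2714, 2368 and 2603 CPM, and for krt18b 3013, 2447, 3427 and 6153 CPM. Replicate 1 was highest for krt8 and replicate 4 for krt18b, so the pair did not move together. The less counted krt18a.1 had 183, 13.7, 28.1 and 69.8 CPM, highest in replicate 1 as krt8 was.

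Further members of the 20 were high in 1 library. The calcium pump gene atp2a1, best known from the sarcoplasmic reticulum of fast muscle, stood at 6240, 1204, 1636 and 2320 CPM. Other muscle markers had no common order of libraries. Of 37 rows matched to the muscle list, 23 averaged under 1 CPM, and myhz2, the fast myosin heavy chain gene, reached at most 1.51 CPM. The ubiquitin ligase gene trim63a, one of the 20 largest spreads, had 334, 19.4, 3.52 and 8.27 CPM, and a row of the titin gene ttn (ENSDARG00000028213) had 8.3, 149, 8.21 and 4.21 CPM. A row of acta1, skeletal alpha-actin (ENSDARG00000036371), had 35.2, 1.08, 12 and 2.92 CPM, and one of the calcium store gene casq1 (ENSDARG00000018105) held between 14.5 and 19.6 CPM. The list as a whole took 0.707%, 0.174%, 0.229% and 0.297% of counts, most of it the atp2a1 row, so these shares are no measure of muscle. Another gene high in replicate 1, ppdpfb, had 6867, 1604, 1818 and 2458 CPM. In all, 3 of the 20 genes (actb2, ppdpfb and the row of atp2a1) differed at least 4-fold between libraries, near the 17.7% of all genes.

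A gene was called spread when its highest library was at least 4 times its lowest on the CPM + 1 scale, and steady when its highest library was at most 25% above its lowest. Of 13127 genes with a mean of at least 5 CPM, 2318 (17.7%) were spread and 320 (2.44%) steady. The median gene differed 2.23-fold between its highest and lowest library. Spread genes were found at every level of expression, making up 19.5% of genes between 5 and 20 CPM, 15.7% of those between 20 and 100 CPM and 17.5% of those above. A single library stood apart from the other 3, by a gap past Dixon's 95% critical value, in 6.66% of genes, where chance gives about 1 in 20.

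**Figure D1:**
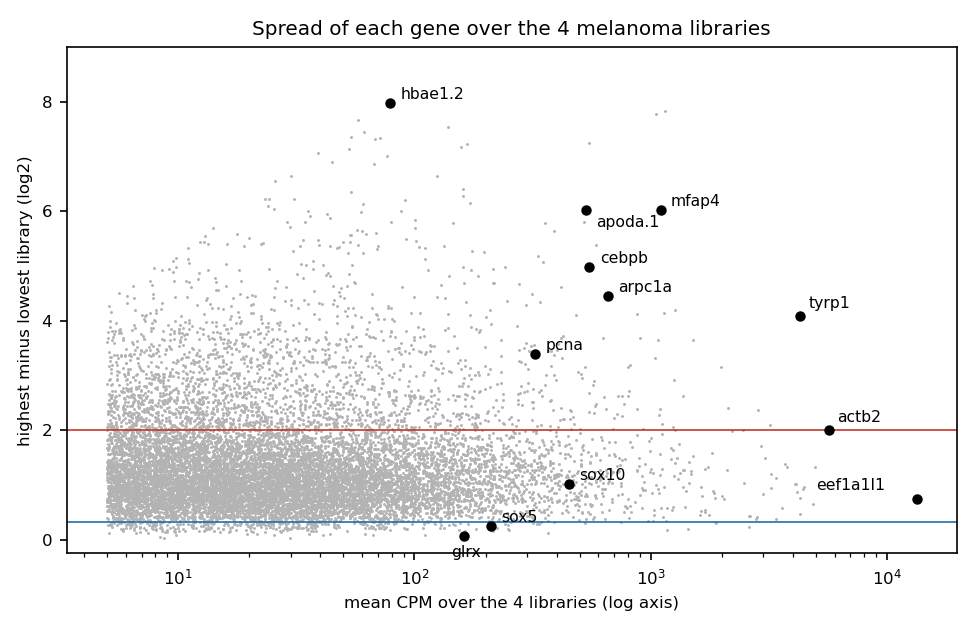
Each grey point is 1 of 13127 genes, with its mean CPM over the 4 melanoma libraries on a log axis and its highest minus its lowest library in log2 CPM + 1. Genes above the red line (2, or 4-fold) are spread and those below the blue line (25% apart) steady; hbae1.2 lies highest among the named genes at 7.98 and glrx lowest at 0.06.

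The libraries did not contribute evenly to this spread. Over all genes, the highest library was replicate 1 in 24.4%, replicate 2 in 34.4%, replicate 3 in 21.3% and replicate 4 in 19.9%. The lowest was replicate 1 in 36.6%, replicate 2 in 22.1%, replicate 3 in 22.4% and replicate 4 in 18.8%. Among spread genes replicate 1 was most often highest, in 914, against 626, 485 and 293 for replicates 2, 3 and 4. Genes more than 4-fold above the next library numbered 267 in replicate 1, 103 in replicate 2, 28 in replicate 3 and 18 in replicate 4. Without replicate 1 the count of spread genes was 1054.

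Most of the largest spreads had replicate 1 as their highest library. The 20 largest were taken from genes with a mean of at least 20 CPM. Of these, 15 were highest in replicate 1, 3 in replicate 3, and 1 each in replicates 2 and 4. Replicate 1 was highest in 24.4% of all genes and in 39.4% of spread genes. The globin hbae1.2 stood at 314 CPM in replicate 1 and at 0.599, 0.248 and 0.339 CPM in replicates 2, 3 and 4. The collagenase gene mmp13a, at 243, 0.611, 0.411 and 0.894 CPM, and the matrix signalling gene ccn2, at 175, 2.05, 0.478 and 1.55 CPM, had the same shape. For these genes replicate 1 lay far above 3 libraries that were all near the floor. They passed 20 CPM only through replicate 1, so the count of 15 was partly fixed by the filter.

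Other large spreads split the libraries differently. The forkhead transcription factor gene foxd2 had 1.7, 0.122, 181 and 102 CPM, high in replicates 3 and 4. The gene kctd4 had 0.16, 46.2, 184 and 41.5 CPM and was nearly absent from replicate 1. The apolipoprotein D gene apoda.1, a transcript of iridophores in zebrafish, had 27.1, 33, 1816 and 257 CPM. The class II antigen gene mhc2daa had 1489, 8.82, 245 and 452 CPM, with replicate 2 lowest, while the ubiquitin-like interferon response gene isg15 had 147, 375, 4.29 and 157 CPM, with replicate 3 lowest.

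The 15 smallest spreads were all within the steady bound. The glutaredoxin gene glrx stood at 158, 160, 165 and 165 CPM, a ratio of 1.04 between highest and lowest. The nuclear import receptor ipo11 had 63.5, 61.5, 62.7 and 59.4 CPM, and rhobtb3 109, 115, 110 and 110 CPM. The proton pump accessory subunit atp6ap1b had 156, 157, 166 and 171 CPM, and the translocon-associated gene ssr2 226, 205, 203 and 221 CPM. Among highly counted genes, rpl15 (1170 ± 63.1 CPM) and rpl30 (1437 ± 82.6 CPM; SD, n = 4 each) held to within 1.15-fold.

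Pigment genes were counted in every library, which matches the label, but at uneven levels. The list of melanin and melanosome genes took 0.492%, 1.12%, 2.06% and 0.997% of counts in replicates 1 to 4. Of its 22 members above 5 CPM, 9 (40.9%) were spread, against 17.7% of all genes. Replicate 1 was the lowest library for 12 of the 22, against 36.6% of all genes. Replicate 2 was the highest for 11 (34.4% of all genes) and replicate 3 for 6, near its 21.3% of all genes. The median spread of the members was 1.64 in log2, against 1.15 for all genes. The level of the list spanned 1.03 in log2, and 0.30 without replicate 1.

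The melanosomal enzyme gene tyrp1 (ENSDARG00000056151) led the list. It had 514, 5263, 8695 and 2671 CPM, 16.9-fold between the lowest library, replicate 1, and the highest, replicate 3. The fibril protein gene pmela had 1680, 2314, 5502 and 2191 CPM, again with replicate 3 highest. Another melanin enzyme, dct, had 351, 170, 1149 and 1521 CPM, and here replicate 2 was the lowest and replicate 4 the highest. So dct did not follow the order of tyrp1. The transmembrane glycoprotein gene gpnmb, at 21.5, 32.1, 453 and 159 CPM, and the melanophilin gene mlphb, at 10.2, 2.68, 43.1 and 45 CPM, shared with dct that replicates 3 and 4 lay above replicates 1 and 2.

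The gene of the rate-limiting enzyme of melanin synthesis, tyr, had 34.7, 56.6, 66.8 and 72.8 CPM, a range of 2.07-fold, near the 2.23-fold of the median gene. The G protein-coupled receptor of the melanosome, gpr143, had 288, 471, 860 and 739 CPM. The gene at the alb locus, slc45a2, was still transcribed, at 81.6, 203, 169 and 117 CPM. Cells had been sorted for the absence of pigment, and the transcripts of the melanin enzymes were among those counted in each library. The proton pump subunit gene atp6v1h, which serves all acidic organelles, was the steadiest of the list at 143, 158, 149 and 102 CPM.

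Regulators and receptors of the lineage varied about as much as other genes. Of 14 above 5 CPM, 2 (14.3%) were spread, against 17.7% of all genes. Another 2 were steady, against 2.44% of all genes, too few to read. Their median spread was 1.06 in log2, against 1.15 for all genes. The transcription factor gene sox10 had 317, 334, 510 and 646 CPM. The gene mitf (ENSDARG00000003732) averaged 56.8 ± 14.8 CPM (SD, n = 4) with 36.2 CPM in its lowest library, and the gene of the receptor tyrosine kinase kit 144, 126, 90.4 and 135 CPM. The SoxD factor gene sox5 was steady at 211, 231, 195 and 206 CPM. Replicate 1 was lowest for mitf, which spanned 1.92-fold. The range of sox10 was 2.03-fold, with replicates 1 and 2 close together at the low end. By share of counts replicate 2 was the lowest for sox10, at 0.0294% against 0.0324% in replicate 1.

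Some factors of the lineage ran the other way. Highest in replicate 1 were foxd3, a neural crest factor (170, 149, 72.7 and 57.8 CPM), and pax3 (444, 208, 146 and 192 CPM), named after its values were seen. Another row held nearly the same counts as foxd3, within 2%, so its reads may be shared. The spread regulators were receptors: ednrb, of endothelin, at 28.8, 95.4, 175 and 158 CPM, and met, of hepatocyte growth factor, at 23.8, 5.49, 39.6 and 6.81 CPM. The melanocortin receptor gene mc1r had 12, 49.4, 28.3 and 16.7 CPM. Each of the 3 receptors had its own order of libraries.

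Genes that mark iridophores, the reflecting pigment cells of fish, were uneven across the libraries. Of 19 list members above 5 CPM, 10 (52.6%) were spread, against 17.7% of all genes, and replicate 3 was highest for 10, against 21.3% of all genes. Beside apoda.1 these included defbl1, at 7.34, 7.19, 153 and 52.1 CPM, and the purine nucleoside phosphorylase gene pnp4a, chosen after its values were seen, at 61.4, 112, 368 and 111 CPM. The receptor tyrosine kinase gene ltk, needed for iridophores in zebrafish, had 48.6, 3.15, 80.7 and 48.9 CPM, with replicate 2 low. The homeobox gene alx4, also chosen after its values were seen, had 188, 94, 522 and 760 CPM in 1 of its rows. The list also holds the purine synthesis genes, which dividing cells use as well: paics had 159, 308, 507 and 741 CPM and atic 34.3, 68.4, 307 and 118 CPM, both named after their values were seen. Of the xanthophore list 1 of 8 members above 5 CPM (12.5%) was spread, near the 17.7% of all genes. Its members xdh and aox5 averaged 1.22 and 1.95 CPM and did not enter, so nothing is read from this count.

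The cell cycle separated replicate 1 from the rest more uniformly than any pigment list. S phase genes took 0.0486%, 0.165%, 0.304% and 0.252% of counts in replicates 1 to 4, and mitosis genes 0.0476%, 0.159%, 0.356% and 0.209%. Replicate 1 was lowest for 30 of 30 S phase genes and for 42 of 43 mitosis genes, against 36.6% of all genes. Replicate 3 was highest for 24 of 30 and for 38 of 43, against 21.3% of all genes. Of the S phase genes 24 (80%) were spread, and of the mitosis genes 35 (81.4%), against 17.7% of all genes. As list levels, set against each gene's mean over the libraries, mitosis stood at -1.56, 0.09, 1.11 and 0.37 in log2, and S phase at -1.46, 0.15, 0.88 and 0.43.

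Single genes showed 2 shapes within this order. The replication clamp gene pcna had 44, 399, 470 and 386 CPM, with replicates 2 to 4 close together and replicate 1 apart. The helicase subunit gene mcm6 (ENSDARG00000057683) had 13.1, 150, 186 and 88.9 CPM, and the cyclin gene ccna2 1.7, 40.9, 31.8 and 21.2 CPM. In contrast the proliferation marker mki67 had 10.7, 31.9, 113 and 95.1 CPM, and the topoisomerase gene top2a 9.29, 20.8, 117 and 58.1 CPM. For mki67 and top2a replicate 2 lay nearer to replicate 1 than to replicate 3 in CPM, which pcna did not show. The kinase gene plk1, at 30.8, 110, 261 and 122 CPM, was like mki67 in CPM. In log2, unlike mki67 and top2a, its replicate 2 lay nearer to replicate 3. For cdk1, at 12.5, 65.6, 107 and 41.9 CPM, replicate 2 lay nearer to replicate 3 on both scales. Both lists kept this order of libraries under every scaling tried. Without replicate 1 the level of the mitosis genes still spanned 1.02 in log2 over the other 3 libraries, and that of the S phase genes 0.72.

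**Figure D2:**
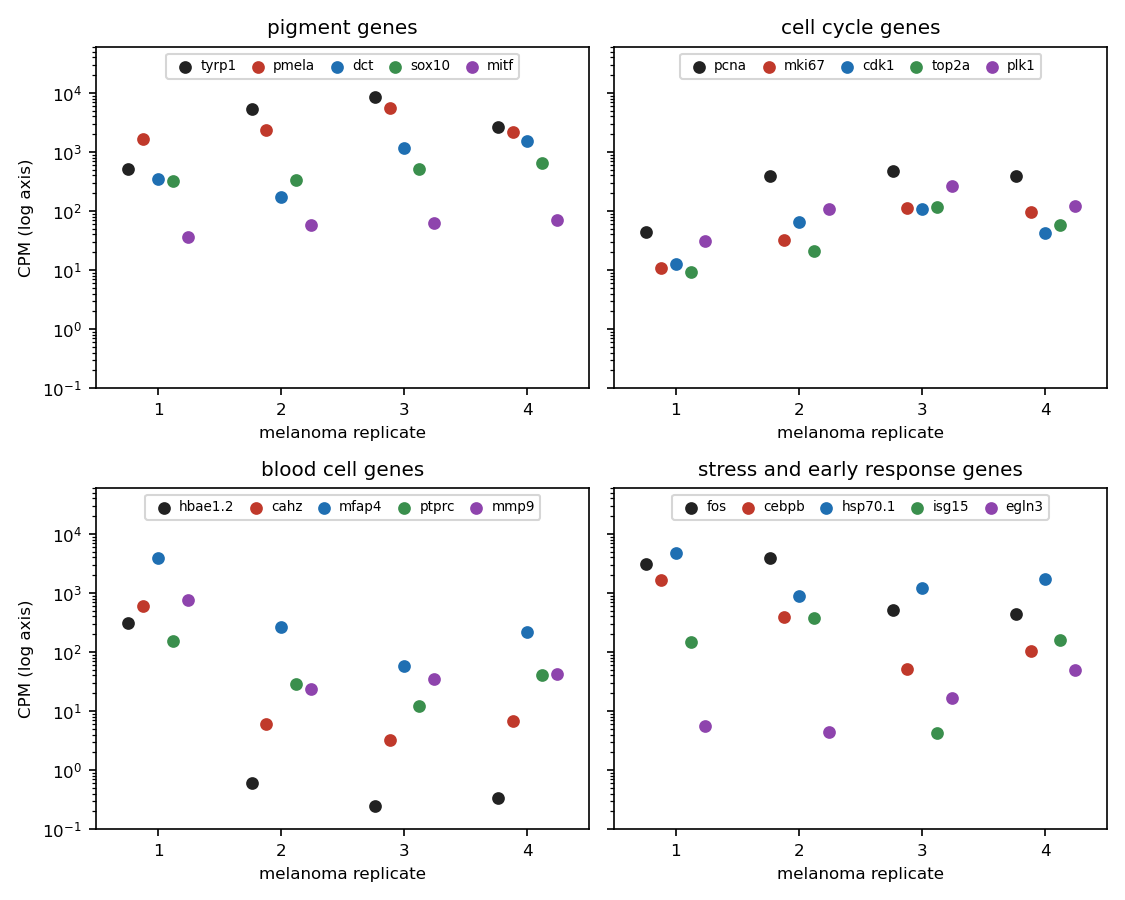
CPM on a log axis of 5 pigment genes, 5 cell cycle genes, 5 blood cell genes and 5 stress or early response genes in melanoma replicates 1 to 4, 1 point per gene and library. Replicate 1 is lowest for the 5 cell cycle genes shown and highest for the 5 blood cell genes shown, with pcna at 44 CPM and mfap4 at 3856 CPM.

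Blood cell transcripts ran opposite to the cell cycle. Erythrocyte markers took 0.157% of counts in replicate 1 and 0.00429%, 0.00495% and 0.00654% in replicates 2, 3 and 4. The carbonic anhydrase gene cahz, abundant in red cells of zebrafish, had 613, 6.09, 3.24 and 6.86 CPM, and the heme synthesis gene alas2 211, 0.293, 1.15 and 2.83 CPM. Of 11 members above 5 CPM, 10 (90.9%) were spread, and 10 were highest in replicate 1 (24.4% of all genes). Most of the 11, such as hbae1.1, alas2 and rhag, passed that limit only through replicate 1. Both counts were thus largely fixed by the filter, and nothing is read from them. The globins named stood under 1 CPM in replicates 2 to 4. Without replicate 1 the level of the list spanned 0.71 in log2, against 3.64 over all 4 libraries.

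Macrophage genes were graded across the 4 libraries. The list took 2.03%, 0.356%, 0.137% and 0.363% of counts, and 28 of 28 members above 5 CPM were highest in replicate 1 (24.4% of all genes), 27 of them lowest in replicate 3 (22.4% of all genes). The secreted protein gene mfap4, a macrophage marker in zebrafish, had 3856, 267, 58.4 and 218 CPM in its most counted row (ENSDARG00000088745). It has 6 rows that may exchange reads. The macrophage marker mpeg1 had 197, 129, 31.3 and 64.7 CPM in its most counted row (ENSDARG00000055290). There replicate 1 stood much less far above replicate 2 than for mfap4. The pan-leukocyte phosphatase gene ptprc had 152, 28.9, 12.3 and 41.2 CPM, and cd74a, the class II invariant chain, 3352, 1422, 269 and 1000 CPM. Unlike globin, these markers stayed above 10 CPM in replicates 2, 3 and 4. Without replicate 1 the level of the list still spanned 1.43 in log2, against 3.83 over all 4 libraries.

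The neutrophil and lymphocyte lists stood highest in replicate 1 as well, with 9 of 9 neutrophil members highest there, against 24.4% of all genes. Of the lymphocyte members 3 of 7 were, too few to set against that share. The neutrophil members mmp13a, npsn, scpp8 and illr4 passed 5 CPM only through replicate 1, so the neutrophil count was partly fixed by the filter. The gelatinase gene mmp9 had 765, 23.8, 35.2 and 41.8 CPM, and the lysozyme gene lyz only 3.95, 1.32, 0.487 and 0.935 CPM. The chemokine receptor gene cxcr4, which other cells also express, had 1288, 250, 51.6 and 80.9 CPM, and the immunoglobulin gene ighm 61.4, 26.3, 4.39 and 7.56 CPM. For both, replicate 3 was lowest. Other lymphocyte members ran otherwise: runx3 (87.3, 52.2, 152 and 172 CPM) and gata3 were highest in replicate 4, and cd28 and cd79a in replicate 2. The neutrophil list took 0.202%, 0.0211%, 0.0291% and 0.0359% of counts and the lymphocyte list 0.165%, 0.0391%, 0.0265% and 0.0338%. In replicate 1 most of the lymphocyte share was the cxcr4 row, with 129087 counts.

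Epidermal markers were mostly highest in replicate 1. The keratin gene krt5 had 90.9, 16.5, 2.53 and 132 CPM, so replicates 1 and 4 were high. The epithelial adhesion gene epcam had 43.4, 2.47, 0.516 and 2.59 CPM and the claudin gene cldnb 77.6, 4.42, 0.153 and 14.3 CPM, with replicate 1 high alone. Of 12 members above 5 CPM, 8 (66.7%) were spread, against 17.7% of all genes, and 10 were highest in replicate 1, against 24.4%. Among the 12, epcam and cldni passed 5 CPM only through replicate 1, so their part in both counts was fixed by the filter. Of the endothelial list 3 members passed 5 CPM and none was spread, too few to set against the 17.7% of all genes. Its most counted gene, the angiopoietin receptor tek, had 19.4, 57, 33.7 and 22.3 CPM, while the endothelial cadherin gene cdh5 stayed between 0.88 and 3.12 CPM. The fibrillar collagen gene col1a1a had 0.659, 0.183, 3.53 and 12.2 CPM, and the matricellular gene sparc 9.94, 330, 54.8 and 59.5 CPM.

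The low level of cycling genes in replicate 1 therefore went with high levels of erythrocyte, macrophage, neutrophil and epidermal markers in the same library, and the part of those cells in it was not tested. Set against the level of the melanocyte regulators, S phase genes stood at -1.26, 0.20, 0.63 and 0.43 in log2 and mitosis genes at -1.36, 0.14, 0.86 and 0.37. The macrophage list stood at 2.38, -0.17, -1.90 and -0.31 on that scale. The order of libraries was the same with and without this adjustment in all 3 lists, and in 13 of 27 lists in all. The adjustment was small beside the spread of these 3 lists and could hardly change their order, so nothing is read from this. The adjustment was chosen after seeing the data.

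Immediate early genes, which are induced within minutes of a stimulus and by dissociation of tissue, were uneven across the libraries. The list took 1.47%, 1.13%, 0.304% and 0.386% of counts in replicates 1 to 4. By this share replicates 1 and 2 were high and 3 and 4 low. Set against the melanocyte regulators, the list level was graded rather than paired, at 1.65, 0.54, -1.46 and -0.73 in log2. Of 28 members above 5 CPM, 25 (89.3%) were spread, against 17.7% of all genes. Replicate 1 was highest for 18 of 28 (24.4% of all genes) and replicate 2 for 10, close to its 34.4% of all genes. Replicate 3 was lowest for 19, against 22.4% of all genes. The members egr2a, egr3, egr4 and klf2b passed 5 CPM only through replicate 1. The AP-1 subunit gene fos had 3075, 3920, 510 and 442 CPM. The growth response factor gene egr1, named after its values were seen, had 301, 991, 90.2 and 136 CPM, and the steadiest member, the survival gene mcl1a, had 1648, 1680, 608 and 942 CPM. Both fos and egr1 were highest in replicate 2, whereas cebpb, at 1657, 386, 51.4 and 105 CPM, and jun, at 509, 96.2, 17.1 and 122 CPM, were highest in replicate 1. The macrophage list was highest in replicate 1 too, and its part in these values was not tested.

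Heat shock genes did not follow the immediate early genes. Their list level was 0.28, -0.31, -0.12 and 0.14 in log2, with replicates 1 and 4 above 3 and 2, and 6 of 26 (23.1%) were spread, close to the 17.7% of all genes. By the median over members the list was highest in replicate 4. The inducible hsp70 genes were high in replicate 1: hsp70.1 had 4704, 890, 1193 and 1722 CPM and hsp70l 1547, 208, 237 and 301 CPM. The hsp90 alpha genes were highest in replicate 4: hsp90aa1 had 504, 424, 480 and 1246 CPM and hsp90aa1.1 124, 67.9, 82.3 and 207 CPM. The constitutive hspa8 (ENSDARG00000068992) had 3032, 5910, 4037 and 4868 CPM and hsp90ab1 2268, 3520, 2739 and 4366 CPM, both lowest in replicate 1. Copies of hsp70 are near-identical and may exchange reads.

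Other stress lists picked out single libraries. Interferon and antigen presentation genes were low in replicate 3, lowest there for 19 of 30 members (22.4% of all genes), with a list level of 0.44, 0.08, -0.96 and 0.43 in log2. The list shares cd74a with the macrophage markers. The low value of isg15 in replicate 3 was given above. The class I gene mhc1zba did not share it and was even at 1828, 2166, 1766 and 1723 CPM. Macrophage markers were lowest in replicate 3 also, and their part in this was not tested.

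Hypoxia and glycolysis genes were highest in replicate 4 for 17 of 30 members, against 19.9% of all genes. The oxygen sensor gene egln3, itself a target of hypoxia-inducible factor, had 5.51, 4.39, 16.6 and 49.4 CPM, and the glycolytic gene gapdhs 1437, 1025, 1799 and 2511 CPM. The other members with large spreads were highest in replicate 1. The glycolysis regulator pfkfb4 had 246, 53.3, 31.6 and 26.4 CPM, and hif1al2 19.3, 1.22, 0.955 and 3.21 CPM. Of these, hif1al2 passed 5 CPM only through replicate 1, so its highest library was largely fixed by the filter. Unfolded protein response genes were highest in replicate 2 for 18 of 25, against 34.4% of all genes. Its widest members were ddit4, the serine synthesis gene psat1 (12.9, 245, 107 and 60.9 CPM) and the glutathione-degrading enzyme gene chac1 (230, 333, 42.6 and 92.4 CPM). The stress gene ddit4 had 150, 18.2, 5.21 and 22.7 CPM, highest in replicate 1, against the trend of its list.

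Genes downstream of MAPK signalling, the pathway that the BRAF transgene feeds, had 5 of 16 members (31.2%) spread, against 17.7% of all genes. The phosphatase gene dusp6, a direct output of ERK, had 550, 745, 554 and 223 CPM, lowest in replicate 4. The Sprouty genes differed from each other: spry4 was nearly even at 248, 284, 212 and 257 CPM, whereas spry2 had 22.5, 78.6, 155 and 70.5 CPM. The phosphatase gene dusp5, at 263, 89.3, 19.3 and 52.5 CPM, and fosl1, at 78.3, 43.8, 10.8 and 17.1 CPM, had the order of the immediate early list. The gene fosl1 is itself a member of that list. The fish's own braf stood at 2.9, 4.99, 5.12 and 7.41 CPM.

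Lists of the basic machinery held few spread genes. None of 69 ribosomal protein genes and none of 28 ribosome biogenesis genes reached 4-fold, against 17.7% of all genes, and 4 of 80 (5%) respiratory chain and ATP synthase genes did. The list of ribosomal protein genes took 7.91%, 6.49%, 6.78% and 6.95% of counts. It lacks rpsa2 and rps4y2, which averaged 0.436% and 0.283% of counts. Their widest members were rpl22 (1058, 294, 499 and 411 CPM) and rps23 (549, 156, 264 and 216 CPM), both highest in replicate 1. Ribosome biogenesis genes were highest in replicate 2 for 19 of 28, against 34.4% of all genes, and lowest in replicate 1 for 15, against 36.6%. An outlier among respiratory genes was atp5mf, a subunit of ATP synthase, at 57.1, 729, 69.4 and 76.8 CPM.

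Set side by side, the 28 lists fell into a few orders of libraries. In 4 lists the order was replicate 3, 4, 2, 1 from high to low: S phase, mitosis, iridophore markers, and melanocyte regulators and receptors. Melanin and melanosome genes also ended with replicate 1, and began with replicate 3 by the mean over members but with replicate 2 by their median or set against the regulators. Replicate 1 was highest and replicate 3 lowest in 9 lists: erythrocyte, macrophage, neutrophil, lymphocyte, epidermis, muscle, immediate early, interferon and ribosomal protein genes. The pigment and cycling lists were thus lowest in the library where the blood and early response lists were highest. S phase, mitosis and iridophore lists kept their order under every scaling and left-out library. The regulators were lowest in replicate 2 instead with total counts or upper quartile factors, the interferon genes highest in replicate 4 with total counts, RLE or the authors' factors, and the epidermis, muscle and ribosomal protein lists lowest in replicate 2 or 4 under 1 or more scalings. Scaling by total counts moves the median gene by -0.18 in log2 in replicate 2. With 4 libraries no correlation was computed, and lists that share an order share the same 4 libraries.

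**Figure D3:**
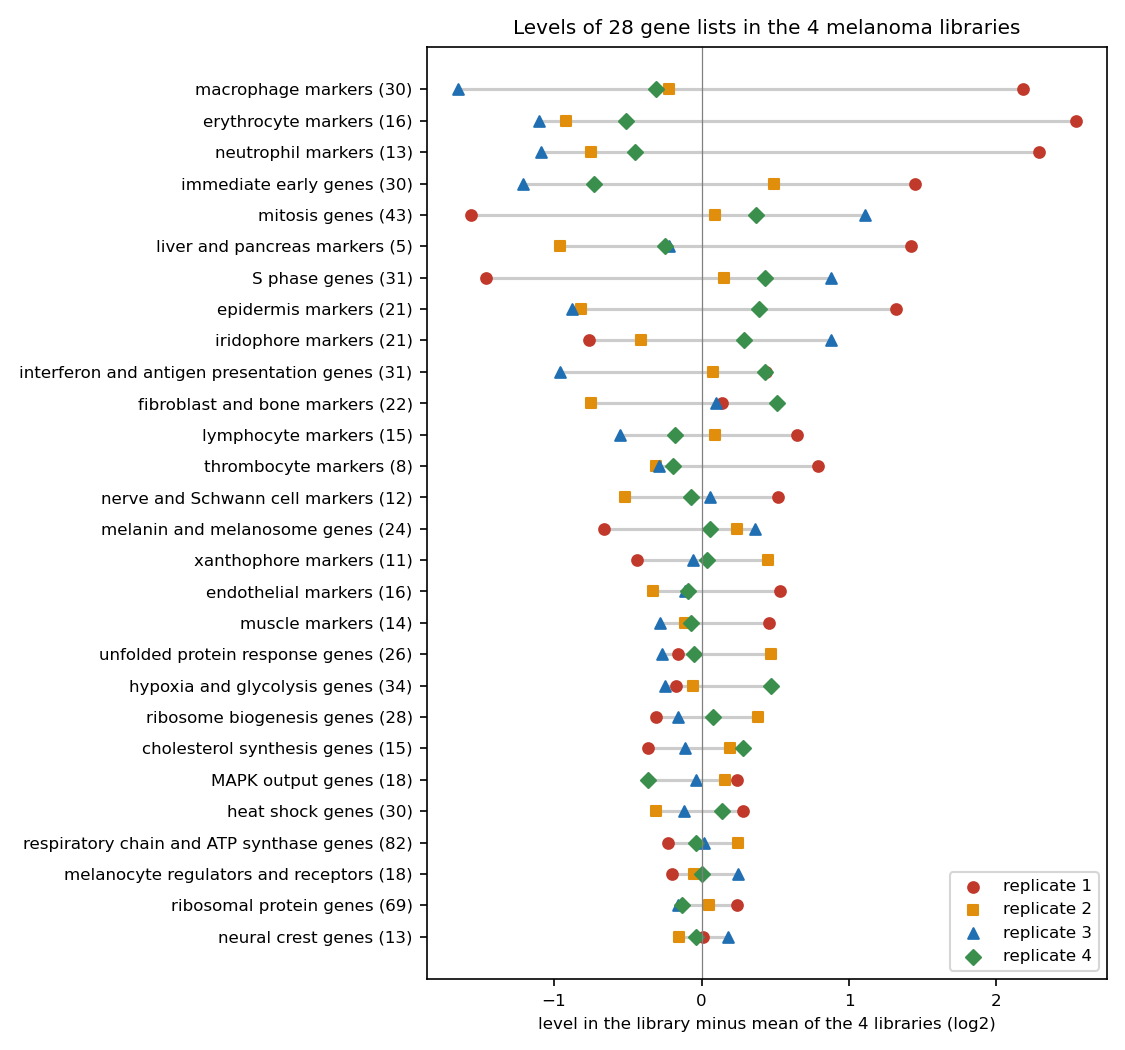
Level of each of 28 gene lists in melanoma replicates 1 to 4, as the mean over measured members (number in parentheses) of log2 CPM + 1 minus the member's mean over the libraries. Macrophage markers are widest, at 2.18 in replicate 1 and -1.65 in replicate 3, and mitosis genes run the other way, at -1.56 and 1.11.

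Hox genes, chosen after their values were seen, differed widely between libraries. These genes record position along the body axis and in the fins, with posterior positions at the high-numbered end of each cluster. Of 14 rows above 5 CPM, 12 were spread, against 17.7% of all genes, from which nothing is read for a set chosen this way. The posterior genes hoxc10 (29.2, 84.1, 0.63 and 4.76 CPM), hoxc11 (28.9, 45.7, 0.65 and 0.134 CPM) and hoxa10b (24.9, 19.9, 0.181 and 0.0617 CPM) were counted in replicates 1 and 2 and were under 5 CPM in replicates 3 and 4. The gene hoxb7, of a less posterior group, had 2.82, 2.11, 25.5 and 30.8 CPM, high in replicates 3 and 4. Of the HoxD genes, hoxd9 stood at 115, 172, 433 and 30.4 CPM, hoxd10 at 13.6, 54.2, 66.1 and 4.37 CPM and hoxd11 at 17.6, 6.83, 27.9 and 0.349 CPM, these 3 lowest in replicate 4. By contrast hoxb3 (17.9, 7.32, 19.5 and 16.3 CPM) and hoxd3 (23.9, 52.3, 57.1 and 50.3 CPM) were present in all 4 libraries.

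Position on the chromosome was shared by many genes that differed in 1 library. The odd values of actb2 and atp5mf in replicate 2 led to this comparison, which was chosen after seeing the data. Of the 13127 genes, 8272 could be placed in order along 25 chromosomes of the RefSeq assembly GRCz12tu, which is not the build of the files, so no coordinates are given. For each gene the level in a library was set against the median of the other 3 libraries, with the library's own median over placed genes taken off. On this measure 14.3%, 9.72%, 6.21% and 5.42% of placed genes were at least 2-fold higher in replicates 1 to 4.

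A run of 22 consecutive placed genes, from gfer to nudt1, were all at least 2-fold higher in replicate 2, by 2.64- to 23-fold with a median of 6.18-fold. All 22 had replicate 2 as their highest library, which the rule for a run largely fixes. The run holds genes of several functions. The Arp2/3 actin-branching subunits arpc1a and arpc1b had 100, 2220, 137 and 177 CPM and 635, 3132, 248 and 278 CPM. The splicing factor gene bud31 had 85.7, 822, 109 and 113 CPM, the folate enzyme gene shmt1 32.6, 613, 115 and 72.9 CPM, and the Notch-modifying fringe gene lfng 129, 702, 33.1 and 122 CPM. Both genes that prompted the comparison lie in the run, actb2 at 2.64-fold and atp5mf at 9.58-fold.

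A run ends by rule at the first gene less than 2-fold higher, so the genes next to it cannot show how sharp its ends are. These were drg2, at 45.7, 82.5, 48.9 and 62.1 CPM, before gfer, and usp31, at 12.3, 14.7, 15.5 and 17.3 CPM, after nudt1. Of 30 flanking genes, 15 on each side, 2 were at least 2-fold higher in replicate 2. They were polr3k (2.03-fold) and raver1 (2.73-fold), both on the nudt1 side. The median difference of the 30 was -0.01 in log2. The 377 other placed genes of that chromosome had a median difference of -0.41 in replicate 2. Together the 22 genes took 1.9% of counts in replicate 2, against 0.783%, 0.383% and 0.526% in replicates 1, 3 and 4. Leaving out replicate 3 broke the run at 11 genes, and leaving out replicate 1 or 4 left it at 22. DNA was not analysed here.

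**Figure D4:**
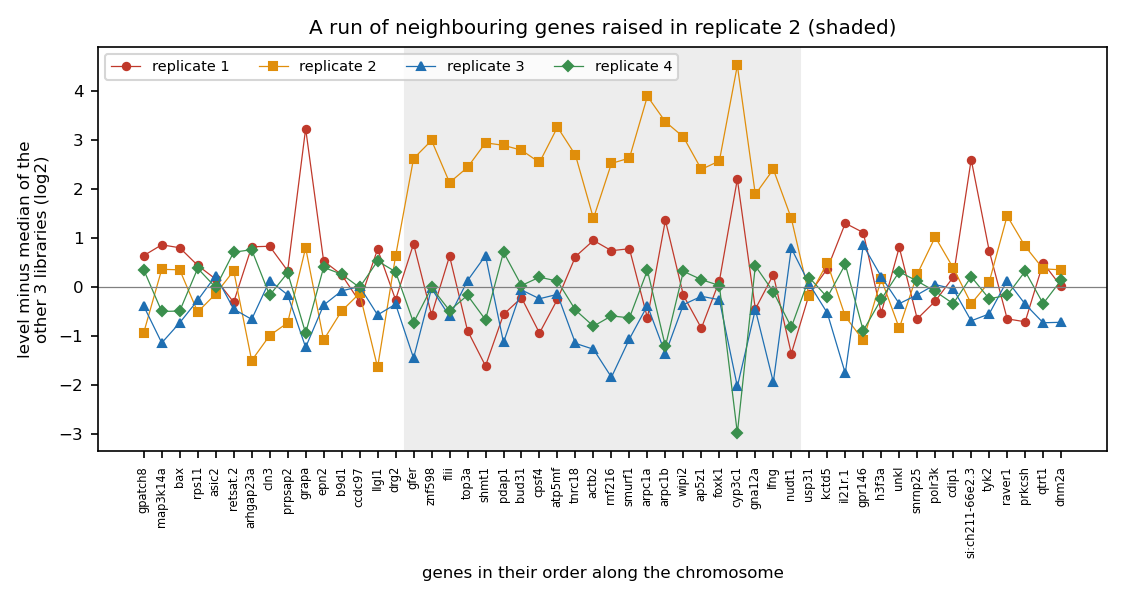
Genes in their order along 1 chromosome, with the level in each melanoma library minus the median of the other 3 libraries in log2, after removal of the library's median; lines join the genes of 1 library and the shaded genes form the run from gfer to nudt1. Replicate 2 lies above the other libraries at all 22 shaded genes, between 1.40 (actb2, nudt1) and 4.52 (cyp3c1).

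Other runs were shorter or made of related genes. Replicate 2 had a further run of 12 genes from the basement membrane collagen gene col4a1 to cfap91, with a median of 4.45-fold. It includes the splicing factor gene u2af1 (31, 182, 26.6 and 29.4 CPM), the kinase gene sik1 (303, 981, 93.1 and 184 CPM) and the cystathionine synthase gene cbsb (138, 430, 68.6 and 48 CPM). The longest in replicate 1 was 13 genes, 11 of them tandem copies of ms4a17a, with a median of 5.51-fold. Its most counted member, ms4a17a.4, had 785, 177, 70.7 and 187 CPM. In replicate 3, 6 tandem copies of the interferon-inducible ifi27 were lower by a median of 7.78-fold, ifi27.3 for example at 349, 123, 10.1 and 162 CPM. Tandem copies are alike in sequence and may exchange reads. The longest run of higher genes was 3 genes in replicate 3 and 5 in replicate 4.

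Whole chromosomes also leaned up or down by library. The chromosome that carries rpl4 had the widest range: over its 282 placed genes the median difference was 0.80 in replicate 2 and -0.68 in replicate 4, with -0.16 in replicate 1 and 0.33 in replicate 3. Of those genes 86.2% lay above the median of the other libraries in replicate 2, and 7.09% did so in replicate 4. On the chromosome of pmela the medians were 0.47, -0.65, 0.24 and -0.10, and on that of hsp90ab1 0.11, -0.12, -0.52 and 0.55. The chromosome of psap, in contrast, stayed within -0.16 and 0.12. Medians at least 0.4 off were found for 7, 10, 4 and 4 of the 25 chromosomes in replicates 1 to 4.

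Likeness along a chromosome was strongest between adjacent genes. Across pairs of adjacent placed genes, which are not independent replicates, r of the differences was 0.176, 0.287, 0.2 and 0.23 in replicates 1 to 4. At 5 genes apart it was 0.0893, 0.216, 0.11 and 0.163, and at 100 genes apart on the same chromosome 0.0844, 0.139, 0.0907 and 0.146. Chromosome medians were not taken off, so the values at a distance include the leaning of whole chromosomes given above. All pairs share a library, its depth and its scaling, so these values are descriptions.

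**Figure D5:**
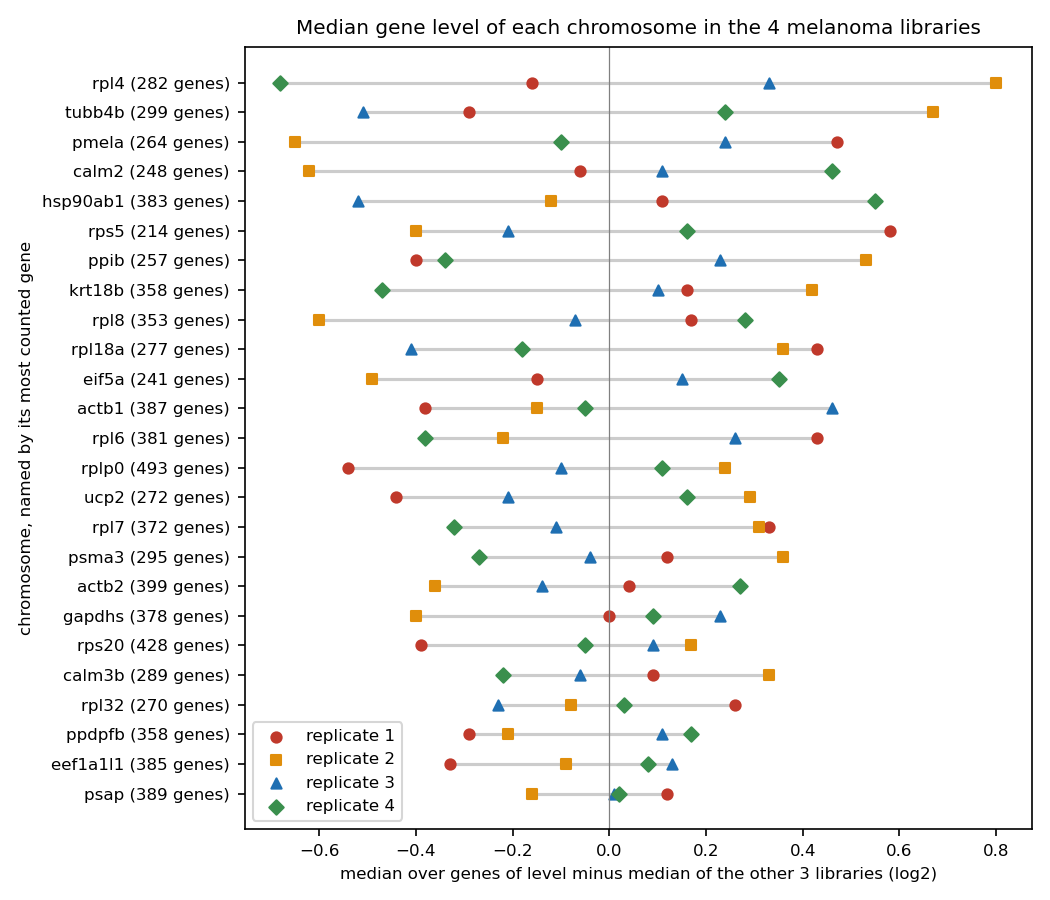
Median over the placed genes of each of 25 chromosomes, named by its most counted gene, of the level in a melanoma library minus the median of the other 3 libraries in log2, after removal of the library's median. Replicates 2 and 4 lie at 0.80 and -0.68 on the chromosome of rpl4, and the 4 libraries lie together on that of psap.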

How the data were processed

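Per the labels' protocols, sorted cells were lysed in Trizol and libraries were made with TruSeq kits. The deposited counts are whole numbers of reads per gene made by the authors. The authors' second file gives a deposited signal, the counts over a size factor of each library, and served for that alternative only. The submitters' processing notes name STAR 2.3, HTSeq, DESeq2 and the build Zv9, with no role or order. Whether strand was used, and how ambiguous reads were treated, is not stated, so copies of a gene and overlapping genes may exchange reads.

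The 4 melanoma columns were used and the 4 other columns of each table were not. Levels are CPM with TMM factors from edgeR 4.0.16 (R 4.3.3) over these libraries (0.88 to 1.06). Log2 values use CPM + 1. A gene entered at a mean of 5 CPM, which is 456 counts in the shallowest library (95% Poisson interval 415 to 500, counting error only), and a list member at 1 CPM. Symbols were found for 19599 of 28272 rows and are written in lower case, and 2765 rows share one. Lists matched 824 rows, after 4 wrong matches were left out. A strain allele is not reported here.

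Named genes were the 20 most counted, the 20 largest spreads above 20 CPM and the 15 smallest above 50 CPM with a symbol of their own, up to 3 of the largest and the smallest spread and the most counted gene per list, and a set of marker genes. Any other gene, those of the run and chromosome comparisons included, was picked with its values known. Members and lists were chosen with earlier results of these data known. Calls and runs were tested on simulated data with planted genes. The simulated libraries varied far less than the real ones and their neighbouring genes were independent. False calls and runs in the real data were therefore not measured. Python 3.11.15 was used for tables and figures.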

Additional observations from a re-analysis of the deposited data

Results flagged for a closer look

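A library far from the other 3 was looked for in each list and each named gene by the gap to its neighbour as a share of the range over the 4 libraries. The limit is Dixon's 95% critical value for 4 samples, which chance passes in about 1 in 20 groups. It was passed by 2 of 28 lists and 18 of 182 named genes, and the libraries are shared, so these are not independent. Over all 13127 genes the share was 6.66%. Many named genes were picked for a large spread in these same data, so nothing is read from their count. Replicate 1 was high in the erythrocyte list (0.838) and the thrombocyte list (0.893). The thrombocyte value rests largely on members under 5 CPM: of the 3 above, a row of fermt3 (ENSDARG00000079267) and gfi1b were highest in replicate 2, as was the list with members above 10 CPM. It was also high in hbae1.1 (0.969), hbae1.2 (0.955), hbae1.3 (0.946), cahz (0.876), mmp13a (0.943), mmp9 (0.841), scpp8 (0.913), egr4 (0.925), egr2 (0.95) and ccn2 (0.848). It was low in pcna (0.916), eef1a1l1 (0.994), dnajc3a (0.912) and slc2a15b (0.955). Replicate 2 was high in atp5mf (0.885) and in the ribosome biogenesis gene utp4 (0.885). It was low in ltk (0.833) and vmo1a (0.858). The low value of slc2a15b, a xanthophore gene, was 60.7 CPM in replicate 1 against 175, 169 and 167 CPM in replicates 2, 3 and 4, and that of dnajc3a was 31.3 CPM against 41, 40.7 and 40 CPM.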

How the results depend on the processing

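By the counts of spread genes, 2318 as reported, 98.4% were also spread with RLE size factors, 91.9% with total counts alone and 94.6% with upper quartile factors. With a mean of at least 20 CPM 1191 genes were spread, and 869 at 8-fold. Without 1 library at a time 1054 to 2053 were, the fewest without replicate 1, when 44.1% of the 2318 remained. The count of steady genes, 320 as reported, was 3097 with no filter, 180 above 20 CPM and 849 to 1455 without 1 library, since fewer libraries leave less room to differ. Without 1 library the level of the melanin list spanned 0.30 to 1.03 in log2, S phase 0.72 to 2.34, mitosis 1.02 to 2.68, erythrocyte 0.71 to 3.66 and macrophage 1.43 to 3.83, each least without replicate 1. The run in replicate 2 held 11 to 22 genes. Set against the melanocyte regulators, heat shock genes spanned 0.85 in place of 0.59, and 13 of 27 lists kept their order of libraries. The order was kept in 17 of 28 lists under total counts, 19 with medians or members above 10 CPM, and 23 to 28 under the other settings. The gap of 1 library needs 4, so it was not recomputed with 3. CPM per kilobase was not run. No paired analysis was possible because 1 group was used, and no result comes from a test between groups.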
